A study of Mus musculus with 8 samples.

Results

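miR-126a is a microRNA (miRNA) of endothelial cells, and its hairpin yields a mature miRNA from each arm, mmu-miR-126a-3p and mmu-miR-126a-5p. Both were followed here in mouse embryonic footpad skin. Probe rows were taken by name. The name gave 2 of the 1881 mature miRNAs on the array, 4 of its 4415 probes and 60 of the 56430 miRNA spots of each array.

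The study profiled miRNAs on 8 single-colour Agilent arrays, 2 in each of 4 groups, to set Dicer conditional knockout (cKO) footpads against wild-type (WT) ones. The groups were Dicer cKO at embryonic stage E17.5, WT at E17.5, Dicer cKO at E16.5 and WT at E16.5, all on a C57BL6 background. Each replicate was pooled footpad skin of 3 to 5 embryos. The labels do not give the Cre line or the cells that lost Dicer, and miRNA probes do not measure Dicer mRNA, so the deletion was not checked on its target. The listed miRNAs of skin epithelium were far lower in cKO skin. Their median log2 change was -3.12, and 7 of 7 fell over both stages in limma's test, beside 14.5% of all 385 tested miRNAs. The sum of their scaled signals was 2.58 to 4.01 in cKO arrays, against 26.3 to 31.2 in WT arrays. This list was chosen with earlier results of these data known, so its fall is no independent check of the labels. In bulk skin, fewer cells of a type and less miRNA per cell cannot be told apart.

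Dicer cuts precursor hairpins into mature miRNAs, so a cell that loses it stops making most new miRNAs. Mir126a lies in an intron of Egfl7, a gene of vascular endothelium, and its 3p arm is known in endothelial cells to hold down Spred1 and Pik3r2, inhibitors of signalling from vascular growth factors. In mouse endothelium the 5p arm is known to act on Dlk1, an inhibitor of Notch signalling.

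In the RefSeq annotation of GRCm38.p6, the 73-base Mir126a hairpin lies on the plus strand at chr2:26591357-26591429. Egfl7 spans chr2:26581083-26592682 on the same strand, so that the hairpin begins 10274 bases after the start of the gene and ends 1253 bases before its end. The RefSeq table held the mature sequence of 1 of the 2 arms, at chr2:26591402-26591423. It is shown because its seed, bases 2 to 8 in capitals, is what pairs with targets, and the hairpin is shown with capitals over the bases complementary to the longer probe of each arm.
mmu-miR-126a-3p: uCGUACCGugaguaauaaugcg
Mir126a hairpin: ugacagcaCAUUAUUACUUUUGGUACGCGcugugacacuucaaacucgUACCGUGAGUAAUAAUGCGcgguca
The first run of capitals is in the 5p arm and the second in the 3p arm. Among the 1738 mature mouse sequences of the table, 1 held this seed, miR-126a-3p itself.

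Each arm had 2 probes that differ by 1 base at the 3′ end, and this base is in capitals in the longer of the pair. The probes are shown because the pair for the 5p arm did not behave alike. The first pair below belongs to miR-126a-3p and the second to miR-126a-5p.
A_54_P2286: cgcattattactcacggtA
A_54_P2285: cgcattattactcacggt
A_54_P1035: cgcgtaccaaaagtaataatG
A_54_P4367: cgcgtaccaaaagtaataat

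RefSeq places a second miRNA gene on the minus strand across the same bases. Its arms are close to the mirror of miR-126a, and they are shown because of their overlap with the probes. In miR-126b-3p the capitals are identical to the longer probe of miR-126a-5p, and in miR-126b-5p they are a 19-base run complementary to miR-126a-3p.
mmu-miR-126b-3p: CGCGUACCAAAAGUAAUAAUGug
mmu-miR-126b-5p: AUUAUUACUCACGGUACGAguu
A probe captures the strand complementary to it, so these runs do not capture miR-126b. Apart from these runs, the other mature sequence closest to the target of each miR-126a probe was an arm of miR-126b. It had 4 or 5 mismatched bases, and its capture by these probes was not tested. The 4 probes for the arms of miR-126b were detected on 0 of 8 arrays, and their mean signals lay between -5.09 and 2.65 units.

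A probe counted as detected when more than 50% of its kept spots were well above background by the scanner software. Signals are background-subtracted Cy3 fluorescence in arbitrary linear units, and the brighter probe stood for each arm. The longer probe of miR-126a-3p was detected on 8 of 8 arrays. Before any scaling between arrays it gave 891.9 and 902.7 units in cKO E17.5 skin and 876.1 and 949.6 in WT E17.5 skin. At E16.5 it gave 547.4 and 547.3 units in cKO skin and 632.2 and 421.4 in WT skin. These unscaled signals were high at E17.5 and low at E16.5, and the genotypes overlapped at both stages. Over all arrays they averaged 722 ± 202 units in cKO and 720 ± 241 in WT (SD, n = 4).

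The longer probe of miR-126a-5p gave 57.7 and 50.7 units in cKO E17.5 skin and 44.3 and 47.3 in WT E17.5 skin. At E16.5 it gave 33.5 and 31.9 units in cKO skin and 33.8 and 22.2 in WT skin. The cKO arrays were above the WT arrays at E17.5, whereas at E16.5 they fell between the WT ones. The mean was 43.4 ± 12.8 units in cKO and 36.9 ± 11.3 in WT (SD, n = 4). On the dimmest array, WT E16.5 replicate 2, 5 of 14 kept spots were well above background, so the probe was detected on the other 7. The coefficient of variation between the spots of an array was 5.79% to 23.4% for this probe and 1.48% to 10.01% for the longer miR-126a-3p probe.

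The 20-base probe of miR-126a-5p was not well above background on any array. Its signals were 12.03 and 11.1 units in cKO E17.5 skin, 9.27 and 10.4 in WT E17.5, 6.49 and 5.84 in cKO E16.5, and 8.71 and 6.52 in WT E16.5. After scaling it sat at the floor on every array, so the values of miR-126a-5p rest on 1 probe.

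**Figure D1:**
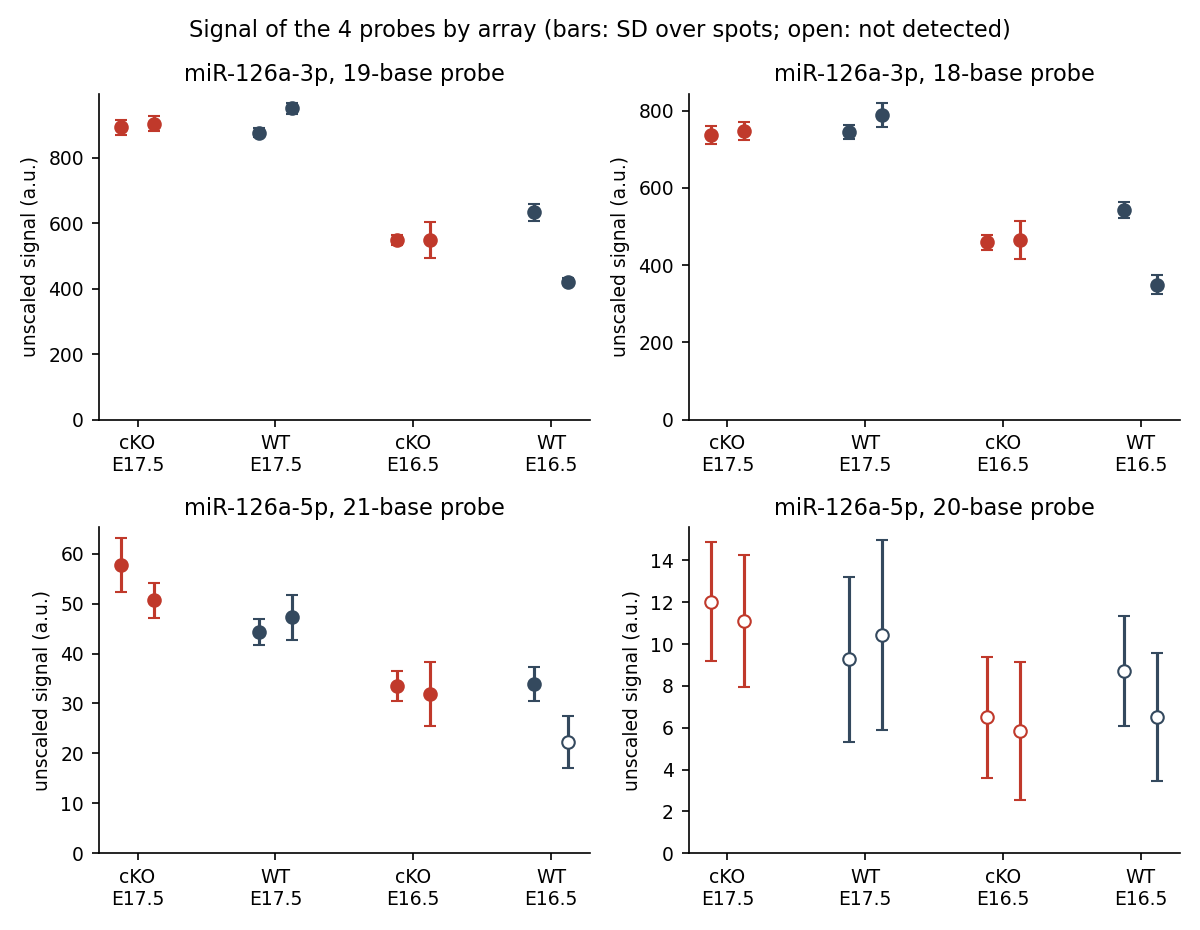
Unscaled probe signals of miR-126a on each array, in arbitrary fluorescence units, with cKO left of WT within each stage. Both probes of miR-126a-3p have the same pattern over arrays, whereas of the miR-126a-5p probes the shorter one stays at 5.84 to 12.03 units.

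Arrays differed in overall brightness. Among the 474 probes that passed detection on each of the 8 arrays, the 75th percentile was 408 and 375 units on cKO E17.5 arrays, 503 and 521 on WT E17.5 arrays, 287.6 and 288.0 on cKO E16.5 arrays and 398 and 284 on WT E16.5 arrays. Each array was divided by this value and log2 was taken, after values under 0.0528 had been raised to that floor (-4.24 on the log2 scale). A scaled level of 0 is therefore the 75th percentile of widely detected probes. The number of detected miRNAs was 383 and 352 in cKO E17.5, 384 and 375 in WT E17.5, 365 and 281 in cKO E16.5, and 367 and 279 in WT E16.5. In every group the array with fewer was replicate 2, the one in the first slide row.

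On the scaled log2 scale, miR-126a-3p stood at 1.13 and 1.27 in cKO E17.5 skin, against 0.80 and 0.87 in WT E17.5 skin. At E16.5 it stood at 0.93 and 0.93 in cKO skin, against 0.67 and 0.57 in WT skin. All cKO arrays were above all WT arrays, at each stage and over both. Group means in falling order were 1.20 ± 0.098 in cKO E17.5, 0.93 ± 0.0015 in cKO E16.5, 0.83 ± 0.045 in WT E17.5 and 0.62 ± 0.072 in WT E16.5 (SD, n = 2). No 2 neighbours in this order overlapped, but the difference between the WT stages did not pass the test given further on, and cKO E16.5 against WT E17.5 was not tested. The shorter probe kept cKO above WT, at 0.85 and 0.99 in cKO E17.5, 0.57 and 0.60 in WT E17.5, 0.68 and 0.69 in cKO E16.5, and 0.45 and 0.30 in WT E16.5.

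For miR-126a-5p the scaled log2 levels were -2.82 and -2.89 in cKO E17.5 skin, against -3.50 and -3.46 in WT E17.5 skin. At E16.5 they were -3.10 and -3.18 in cKO skin, against -3.55 and -3.68 in WT skin. Here too every cKO array was above every WT array. The order of the group means matched that of the other arm, with -2.85 ± 0.046 in cKO E17.5, -3.14 ± 0.052 in cKO E16.5, -3.48 ± 0.029 in WT E17.5 and -3.61 ± 0.086 in WT E16.5 (SD, n = 2). Levels of the arms are not set against each other, since probes differ in how brightly they report the same amount of RNA.

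**Figure D2:**
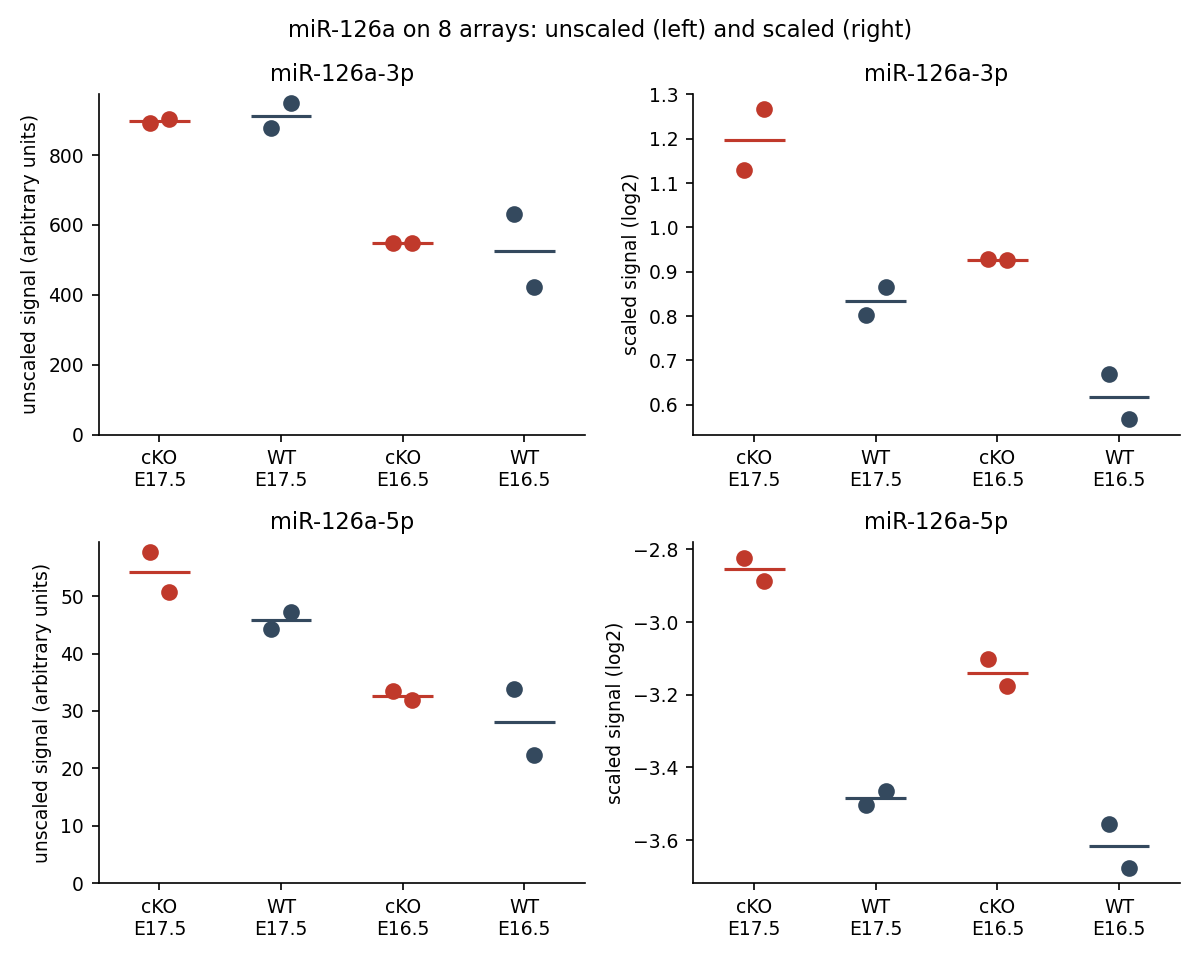
Scaled log2 levels of miR-126a-3p and miR-126a-5p on each of the 8 arrays, cKO left of WT within each stage; points are arrays and lines are group means. In the scaled levels of both arms the cKO arrays lie above the WT arrays of the same stage.

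The main question was whether an endothelial miRNA changed in Dicer cKO skin. Both arms were higher relative to the widely detected miRNAs of the same array. Over both stages miR-126a-3p averaged 1.06 ± 0.17 in cKO and 0.73 ± 0.13 in WT on the log2 scale (SD, n = 4), a limma change of 0.34 ± 0.042 (SE; 95% interval 0.23 to 0.44; adjusted p = 0.00184), or 1.26-fold. miR-126a-5p averaged -3.00 ± 0.17 in cKO and -3.55 ± 0.092 in WT, a limma change of 0.55 ± 0.039 (SE; 95% interval 0.45 to 0.65; adjusted p = 3.00e-04), or 1.47-fold. Thus 2 of 2 arms rose, where 46% of the 385 tested miRNAs rose and 14.5% fell. A rise was common on this array, and the 385 had a median change of 0.17. Relative to that median, miR-126a-3p was 0.17 higher and miR-126a-5p 0.39 higher. By size of rise they took places 69 and 6 of 385. The change of miR-126a-5p still passed but was 0.34, at place 16, with normexp background correction, and 0.28, at place 88, with the mean of both probes, which averages in the probe at the floor. A complete separation with cKO above WT over both stages, shown by both arms, was shared by 25.5% of tested miRNAs.

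At E17.5 the rise of miR-126a-3p was 0.36 ± 0.059 (SE; limma adjusted p = 0.0061), or 1.29-fold. That of miR-126a-5p was 0.63 ± 0.056 (SE; limma adjusted p = 9.55e-04), or 1.55-fold. The call of miR-126a-3p was lost with median scaling (0.23; limma adjusted p = 0.0788) and with no filter and no trend (adjusted p = 0.079). It was also lost with the 75th percentile of all probes (0.034), unscaled (-0.024) and with control probes (-0.14). The call of miR-126a-5p was lost with all probes (0.30), unscaled (0.24), with control probes (0.12) and by its dimmer probe at the floor. With the mean of both probes, miR-126a-5p passed at 0.31 and place 79, and miR-126a-3p at 0.35 and place 69. Again 2 of 2 arms rose, beside 36.1% of tested miRNAs, whose median change was 0.13. Places by size were 82 and 6 of 385. Both arms separated the genotypes, as did 55.3% of miRNAs with cKO above WT.

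At E16.5 miR-126a-3p was higher by 0.31 ± 0.059 (SE; limma adjusted p = 0.0125), or 1.24-fold, and miR-126a-5p by 0.48 ± 0.056 (SE; limma adjusted p = 0.00231), or 1.39-fold. Both passed, beside 35.8% of tested miRNAs with a median change of 0.19, and their places were 123 and 20 of 385. Neither passed unscaled (0.085 and 0.25), with the 75th percentile of all probes (0.080 and 0.25) or with control probes (0.0039 and 0.17). With no filter and no trend, miR-126a-3p did not pass either (limma adjusted p = 0.14). With normexp the order turned, at 0.26 and place 60 for miR-126a-3p and 0.25 and place 78 for miR-126a-5p, both passing. With the mean of both probes, miR-126a-5p was at 0.24 and place 133. Both separated the genotypes, as did 56.1% of miRNAs with cKO above WT. Without cKO E16.5 replicate 1, the adjusted p of miR-126a-3p in limma's test was 0.0616, and 59 miRNAs in place of 138 were called higher.

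In the main setting the cKO effect was numerically larger at E17.5 for both arms, but the difference of effects did not pass. It was 0.055 ± 0.084 for miR-126a-3p (SE; 95% interval -0.16 to 0.27; limma adjusted p = 0.66) and 0.15 ± 0.078 for miR-126a-5p (SE; 95% interval -0.048 to 0.35; limma adjusted p = 0.261). The direction of this difference turned with the scaling. For miR-126a-3p it was 0.066 with quantile normalization and -0.069 with median scaling. It was -0.047 with the 75th percentile of all probes, -0.11 unscaled and -0.14 with control probes. For miR-126a-5p it was 0.22 with quantiles, 0.029 with the median and 0.051 with all probes. It was -0.011 unscaled and -0.047 with control probes. None of these values passed. Of the tested miRNAs 1.56% passed this test in the main setting, 3 in each direction. Without cKO E16.5 replicate 2 it called 12 higher and 30 lower, and without replicate 1 of that group 8 and 10.

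**Figure D3:**
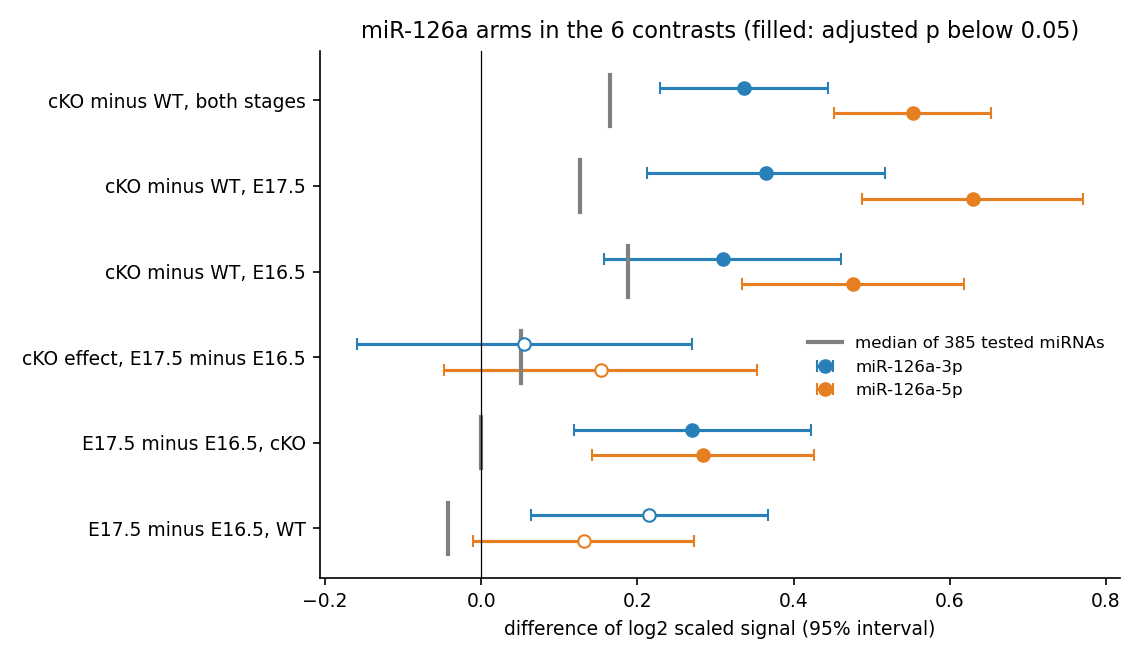
limma log2 changes of both arms with 95% intervals for cKO minus WT, for how this effect differs by stage, and for the stage change within cKO and within WT, beside the median of all 385 tested miRNAs. The cKO minus WT intervals of both arms lie above 0 at each stage, and that of miR-126a-3p at E16.5 (0.16 to 0.46) holds the median of 0.19.

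The size of the rise depended on what an array was scaled to. Over both stages, miR-126a-3p changed by 0.26 when arrays were scaled to the median of the detected probes (limma adjusted p = 0.0122) and by 0.30 after quantile normalization, and both passed. With no scaling its log2 difference was 0.031 (limma adjusted p = 0.975), with the 75th percentile of every probe, detected or not, it was 0.057 (adjusted p = 0.874), and with the 5 positive control probes it was -0.068 (adjusted p = 0.257). For miR-126a-5p the values were 0.48 with the median and 0.47 with quantiles, both passing. They were 0.25 unscaled (limma adjusted p = 0.303), 0.27 with all probes (adjusted p = 0.305) and 0.15 with control probes (adjusted p = 0.104). None of the 6 scalings gave a significant fall of either arm.

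The median of all tested miRNAs moved with the scaling, from 0.17 in the main setting to 0.099 with the median, 0.11 with quantiles, -0.066 with all probes, -0.092 unscaled and -0.17 with control probes. Both arms were above it each time, and miR-126a-5p was among the 10 highest of 385 under all 6 scalings. miR-126a-3p took places between 67 and 110. Apart from quantiles, these scalings shift all miRNAs of an array alike above the floor, so places could hardly move. Their agreement is therefore not separate support. Outside these scalings, miR-126a-5p took place 16 with normexp or the scanner software's total signal, and place 88 with the mean of both probes. The split of called miRNAs turned with the scaling. It was 177 higher and 56 lower in the main setting, 129 and 63 with the median, and 151 and 67 with quantiles. It was 6 and 44 with all probes, 6 and 57 unscaled and 7 and 178 with control probes. Calls of a rise thus depended on scaling to detected probes or quantiles. Set within each array against the median of 260 other detected miRNAs, neither arm passed (adjusted exact permutation p = 0.143 for miR-126a-3p and 0.0571 for miR-126a-5p). That test ignored stage. Permuted within stage, both arms had an exact p = 0.0556, the smallest possible, so this form could not pass and does not decide the question.

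**Figure D4:**
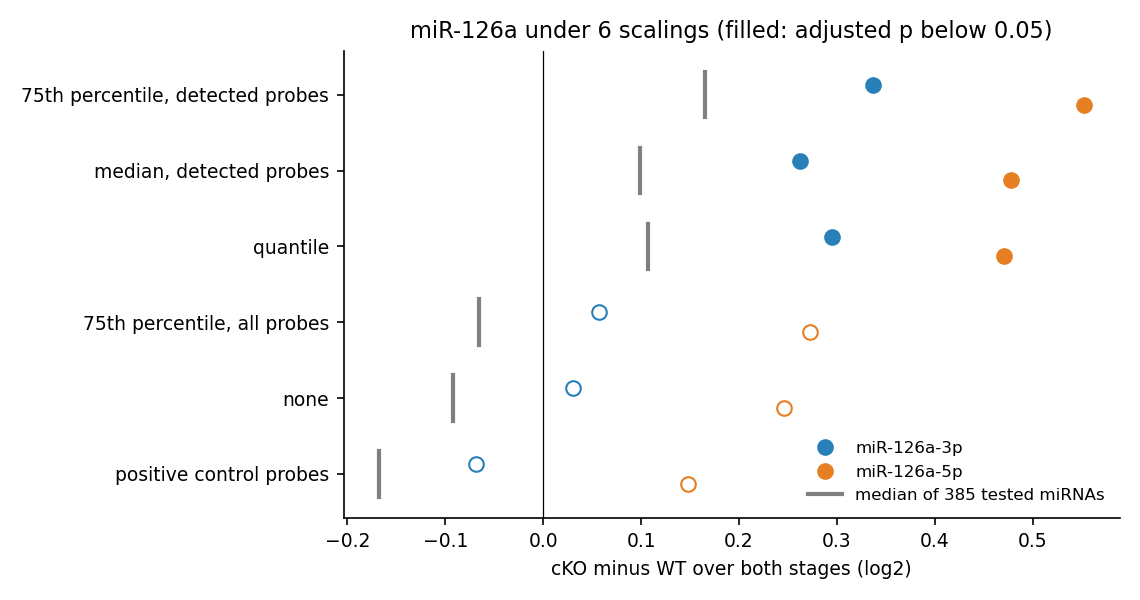
log2 change of miR-126a-3p, miR-126a-5p and the median of all tested miRNAs, cKO minus WT over both stages, under 6 scalings of the arrays. Both arms stay above the median of all miRNAs while all 3 shift together, from 0.34, 0.55 and 0.17 in the main setting to -0.068, 0.15 and -0.17 with control probes.

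Between stages, both arms were called higher at E17.5 than at E16.5 in cKO skin, a call that did not hold in many settings. The difference was 0.27 ± 0.059 for miR-126a-3p (SE; limma adjusted p = 0.0261) and 0.28 ± 0.056 for miR-126a-5p (SE; limma adjusted p = 0.0233), against a median of 0 over all tested miRNAs, 15.3% of which rose. In WT skin the differences were 0.22 for miR-126a-3p (limma adjusted p = 0.0699) and 0.13 for miR-126a-5p (adjusted p = 0.162), so that 0 of 2 arms passed, beside 4.16% of tested miRNAs that rose. Those 16 miRNAs became 4 without WT E16.5 replicate 2 and 2 without WT E17.5 replicate 2. The differences between genotypes in this stage change are the interaction values given above, which did not pass. These stage calls in cKO were lost for both arms without cKO E16.5 replicate 1 or 2, cKO E17.5 replicate 2, or WT E17.5 replicate 1 or 2, and for miR-126a-5p without cKO E17.5 replicate 1 (limma adjusted p from 0.0553 to 0.0982). Across the other settings, the call held in 9 of 17 for miR-126a-3p and 9 of 16 for miR-126a-5p, which was at -0.073 with normexp. With arrays left out, the differences that did not pass ranged over 0.20 to 0.27 for miR-126a-3p and 0.25 to 0.32 for miR-126a-5p.

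A scaling factor common to an array cancels when one arm is subtracted from the other within it (quantile normalization is not such a factor), so this difference asks only whether the arms changed unequally. The log2 difference of miR-126a-5p minus miR-126a-3p was -3.95 and -4.15 in cKO E17.5 skin, against -4.31 and -4.33 in WT E17.5 skin. At E16.5 it was -4.03 and -4.10 in cKO skin, against -4.22 and -4.24 in WT skin. The cKO arrays were all nearer to 0 than the WT arrays, and the groups did not overlap. The size of these numbers reflects the probes as well as the RNA and is not read as a ratio of molecules.

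The within-array difference averaged -4.06 ± 0.088 in cKO and -4.28 ± 0.050 in WT (SD, n = 4), a shift of 0.22 toward the 5p arm. The two-sided exact permutation test gave p = 0.0286, the smallest possible over 70 arrangements, and p = 0.0556 over the 36 arrangements within stage, again the smallest possible. The shift was 0.26 at E17.5 and 0.17 at E16.5, where 2 arrays against 2 cannot go below p = 0.333 in an exact test. It did not pass without WT E17.5 replicate 1 or 2 (exact p = 0.0571). With normexp background correction, which adds 50 units to each spot where miR-126a-5p had 22.2 to 57.7, the shift was 0.051 (exact p = 0.771).

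**Figure D5:**
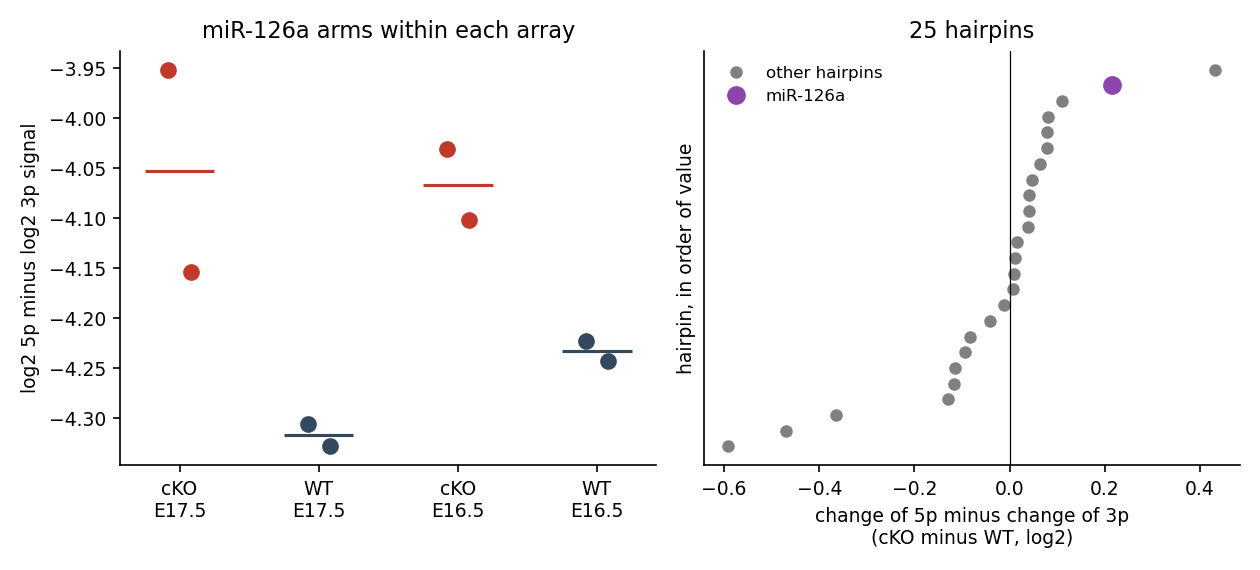
Within-array log2 difference of miR-126a-5p minus miR-126a-3p on each array by group, and the unequal change of the arms (cKO minus WT over both stages) for miR-126a and 24 other hairpins. The 4 cKO arrays lie above the 4 WT arrays, and miR-126a has the fifth-largest size among the 25 hairpins.

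For scale, 24 other hairpins had both arms detected on all 8 arrays (miR-126a-5p was missed on 1), and the median size of their unequal change was 0.079, within a range of -0.59 to 0.43. In 4 of them the size was larger than in miR-126a. The 3 largest were miR-17 at -0.59, miR-30e at -0.47 and miR-652 at 0.43. In miR-17 the 5p arm changed by -0.54 and the 3p arm by 0.047, in miR-30e the arms changed by 0.011 and 0.48, and in miR-652 by 0.34 and -0.091.

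Other miRNAs with known roles in endothelium and vessel growth did not share one direction. Of 18 listed, 17 were tested over both stages, of which 4 rose, 8 fell and 5 did not pass, beside 46% of all tested miRNAs that rose and 14.5% that fell. Of those 5, miR-222-3p and miR-132-3p were at the floor in every group. The median change of the 15 others was -0.14, against 0.17 for all tested miRNAs. Many of them are also made by other skin cells. The highest was miR-296-5p, known in human endothelial cells to raise growth factor receptors, at 0.30 (limma adjusted p = 0.00627). The lowest was miR-221-3p, which in human endothelial cells holds down the receptor Kit, at -1.21 (limma adjusted p = 2.27e-05), a size limited by the floor, at which its cKO E16.5 mean lay. The rises in this list did not last under unscaled, all-probe or control-probe values, with which 0 of 17 rose and 7, 7 and 14 fell, and with median scaling 1 rose and 8 fell.

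Markers of other cell types are given beside the 46% of all tested miRNAs that rose. All 5 listed dermal fibroblast miRNAs rose, from miR-214-3p at 0.30 to miR-199a-5p at 0.41 with a median of 0.38, and their summed scaled signal was 60.2 to 65.3 in cKO arrays, against 45.4 to 52.3 in WT arrays. Of 6 tested blood-cell miRNAs 3 rose, from a lowest change of -0.22 for miR-144-3p to a highest of 0.31 for miR-486a-5p, with a median of 0.21. Their summed signal was 4.63 to 5.07 in cKO arrays and 3.14 to 5.04 in WT arrays, so the genotypes overlapped. Of 2 tested miRNAs of mural cells and smooth muscle, which wrap vessels, miR-145a-5p rose by 0.34 (limma adjusted p = 0.00536) and miR-143-3p differed by 0.012 (limma adjusted p = 0.828). At single stages miR-143-3p rose by 0.21 at E17.5 (limma adjusted p = 0.0326) and changed by -0.18 at E16.5 (adjusted p = 0.0462). Of the 5 fibroblast miRNAs, 5 rose with median scaling, 3 with quantiles and 0 unscaled or with all probes. With control-probe scaling 0 members of these 3 lists rose, and 1 blood-cell and 1 mural miRNA fell, while the 7 epithelial miRNAs still fell. The part of the epithelial loss and of these cell types in the miR-126a result was not tested.

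The miRNAs with the pattern most like each arm over the 8 arrays were found by the root mean square difference of centred log2 levels, among 260 others detected on all arrays. For miR-126a-3p these were miR-497a-5p (0.053), miR-223-3p (0.059) and miR-411-5p (0.079), against a median difference of 0.243 over all 260. For miR-126a-5p they were miR-411-5p (0.063), miR-154-5p (0.067) and miR-379-3p (0.071), against a median of 0.287. The arms differed from each other by 0.124 on the same measure. The cKO minus WT changes of these miRNAs over both stages were 0.33 for miR-497a-5p, 0.31 for miR-223-3p, 0.45 for miR-411-5p, 0.45 for miR-154-5p and 0.51 for miR-379-3p.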

How the data were processed

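Per the file headers, the authors' arrays were read with Agilent Feature Extraction 11.5.1.1, and the deposited scanner files give background-subtracted fluorescence intensity per spot, with no scaling between arrays. The well-above-background, outlier and saturation marks are the deposited ones. The deposited value table equals these signals within 0.02.

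Spots marked as outliers were left out (2.84% to 6.02% per array; 0 were saturated), and spots of a probe were averaged. Each array was divided by the 75th percentile of 474 probes detected on all arrays, values were floored at 0.0528, log2 was taken, and the brightest probe stood for each miRNA. A miRNA was tested when a probe was detected on both arrays of a group (385 of 1881; 261 were detected on all arrays). limma 3.58.1 in R 4.3.3 fitted 4 group means with eBayes and a trend, on 4 residual degrees of freedom, with Benjamini-Hochberg adjustment per comparison over all 385 miRNAs and a threshold of 0.05. The within-array difference of the arms was tested by exact permutation.

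The limma fit alone was tested on simulated log2 values of 385 miRNAs, with 60 changed in the comparison over both stages. It recovered 84.3% of log2 changes of 0.34, 99.5% of changes of 0.55 and 100% of changes of 1. Of its calls 6.19% were false. Array scaling, the floor, the detection filter and probe choice were not simulated, so these shares do not cover the dependence on scaling. In the data more miRNAs were called in this comparison, 233 of 385. Replicates of a group correlated at 0.997 to 0.999 over 261 miRNAs. The number of arrays limits the precision, and p-values measure the spread between pools, some of which may be technical. All arrays lay on a single slide, and replicate number went with slide row.

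Named miRNAs were both arms, the highest and lowest member of each list, the 3 miRNAs most like each arm and the 3 hairpins with the most unequal arms. Members and lists were chosen with earlier results of these data known. Alternatives covered scaling, background correction, probe and spot summary, the filter, the fit, the replicate block and left-out arrays.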

Additional observations from a re-analysis of the deposited data

How the results depend on the processing

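Without scaling, the cKO minus WT changes (both stages, then E16.5, then E17.5) were 0.031, 0.085 and -0.024 for miR-126a-3p and 0.25, 0.25 and 0.24 for miR-126a-5p. With all-probe scaling they were 0.057, 0.080 and 0.034, and 0.27, 0.25 and 0.30. With control probes they were -0.068, 0.0039 and -0.14, and 0.15, 0.17 and 0.12. None of these passed. Calls were also lost for miR-126a-3p at E17.5 with median scaling (0.23), for miR-126a-3p at E16.5 (0.31) and E17.5 (0.36) with no filter and no trend, and for miR-126a-5p by its dimmer probe, at the floor by construction (0 in each comparison, the stage change in cKO included).

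The stage calls in cKO were the least stable. Values that did not pass were, for miR-126a-3p, 0.54 with all-probe scaling, 0.26 with the median, 0.71 unscaled, 0.27 with no filter or with only the arrays compared, 0.21 from the software's total signal, 0.25 with outlier spots kept and 0.23 with the median of spots. For miR-126a-5p they were 0.56 with all probes, 0.73 unscaled, 0.28 with no filter or only the arrays compared, 0.38 from the total signal and -0.073 with normexp. In WT, the stage change of miR-126a-3p passed with quantiles (0.32), unscaled (0.82), control probes (0.45), normexp (0.22) and only miRNAs detected on all arrays (0.22). That of miR-126a-5p passed as a rise unscaled (0.74) and with control probes (0.37), and as a fall with normexp (-0.25; limma adjusted p = 0.0419).

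With normexp, the unequal change of the arms was 0.051 over both stages, 0.11 for the later stage and -0.0083 for the earlier one. It was -0.055 (exact p = 0.457), -0.072 and -0.039 with the mean of all probes, which averages in the 5p probe at the floor. It was 0.098 (quantiles) and 0.12 (outlier spots kept) at E16.5, and 0.41 (total signal) at E17.5. Where no cause is named, the cause was not tested.

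Leaving out 1 array at a time gave, over both stages, 0.30 to 0.37 for miR-126a-3p and 0.52 to 0.58 for miR-126a-5p; at E16.5, 0.26 to 0.36 and 0.42 to 0.54; at E17.5, 0.30 to 0.43 and 0.60 to 0.66; for the stage change in cKO, 0.20 to 0.34 and 0.25 to 0.32; and for the arms, 0.18 to 0.25. With a lone array in a group, its spread is taken from the others.

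Deviations of same-numbered arrays correlated at -0.141 over 385 miRNAs between cKO E16.5 and WT E16.5. In every other pair of groups the correlation was positive, at 0.118 to 0.275. The number is not taken as a pairing in the main fit, and it cannot be told apart from slide row. With the replicate block, the limma change over both stages was 0.34 (adjusted p = 0.00543) for miR-126a-3p and 0.55 (adjusted p = 7.55e-04) for miR-126a-5p, and no limma call of either arm changed. The arm difference of 0.22 had an exact p = 0.0556, the smallest possible.

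Over all settings other than left-out arrays, counts of called miRNAs over both stages were 6 to 184 higher (177 in the main setting) and 40 to 178 lower (56). At E16.5 they were 4 to 147 higher (138) and 17 to 102 lower (58), and at E17.5 3 to 142 (139) and 30 to 199 (39). For the interaction they were 0 to 12 (3) and 0 to 20 (3), for the stage change in cKO 1 to 108 (59) and 5 to 140 (78), and in WT 0 to 188 (16) and 4 to 143 (41). With 1 array left out they were 133 to 181 and 50 to 57 over both stages, 59 to 134 and 48 to 55 at E16.5, 81 to 144 and 33 to 41 at E17.5, 0 to 12 and 3 to 30 for the interaction, 21 to 63 and 10 to 77 for the stage change in cKO, and 2 to 14 and 6 to 47 in WT. Of 305 recomputed values of miR-126a with a test, left-out arrays included, 241 kept their side of the threshold and 51 no longer passed. A further 7 newly passed, and 6 changed sign where the main or the recomputed value passed. Among limma values, sign changes where neither value passed, as in the interaction, are counted in the 241. So are reruns on the deposited value table, which equals the signals used, and interaction values, which passed in no setting. The 241 therefore do not measure how stable the genotype calls were under other scalings. An unfiltered fit with a trend could not be fitted, and miR-126a-5p has no value among miRNAs detected on all 8 arrays.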

Other observations

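In a comparison added after the data were seen, each arm was set within its array against the median of 260 other miRNAs detected on all arrays. On this log2 scale miR-126a-3p was at 2.29 ± 0.24 in cKO and 2.01 ± 0.20 in WT (SD, n = 4), a difference of 0.29 (two-sided exact permutation p = 0.143). miR-126a-5p was at -1.77 ± 0.24 in cKO and -2.27 ± 0.15 in WT, a difference of 0.50 (exact permutation p = 0.0286, the smallest possible). Adjusted over these 2 comparisons, the exact p-values were 0.143 and 0.0571, so neither passed. Permuted within stage, both had an exact p = 0.0556, the smallest possible.

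The scanner software also deposited a total signal per miRNA. For miR-126a-5p it was 20.3 units in cKO E17.5 replicate 1 and 14.7 in replicate 2. On the first of these arrays the total of the 21-base probe was 16.8 units and that of the 20-base probe 3.50, and their sum is the deposited total. On the other 7 arrays the deposited total was that of the 21-base probe alone. Among the spots of miR-126b left out as outliers, 1 of miR-126b-3p in cKO E17.5 replicate 1 read 13675 units, while 0 of the 460 kept miR-126b spots over all arrays were well above background.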
